A study of Mus musculus with 6 samples.

Results

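The genes described here are those of the lysosome and of autophagy in mouse hippocampus, 64 genes of 14860 that had a probe with a single gene symbol. They were chosen by name, with earlier results of these data known. The choice took the lettered cathepsins (Cts), the Lamp membrane proteins, the mucolipin channels (Mcoln), the subunits of the vacuolar proton pump (Atp6v), the Ulk kinases, the numbered Atg genes and the Gabarap and Map1lc3 genes. Expression was measured in the hippocampus of 3 transgenic mice that the labels call HGPS and of 3 wildtype mice, all 63 weeks old, with 1 Affymetrix array per animal. HGPS commonly stands for Hutchinson-Gilford progeria syndrome, in which a mutant lamin A brings on early ageing. The sources used here do not give the allele of the transgene, the promoter that drives it, the strain or the sex of the animals.

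Lysosomes are acidic compartments in which hydrolases degrade proteins, lipids and sugars. The V-ATPase, a rotary proton pump with a cytosolic V1 part and a membrane V0 part, acidifies them, and cathepsins are their main proteases. In autophagy, the Ulk1 kinase complex starts a membrane that Atg proteins extend, lipid-linked proteins of the Atg8 family (LC3 and GABARAP) coat it, and the closed vesicle fuses with a lysosome. Neurons depend on this pathway because they do not dilute damaged proteins by dividing, and microglia carry many lysosomes.

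Values are log2 expression as deposited, and differences are transgenic minus wildtype on that scale with limma's moderated standard error (SE). Wildtype replicates 2 and 3 carried a signal of Y-linked genes, with a mean of Eif2s3y and Kdm5d of 8.41 and 8.45, against 4.67, 4.78 and 4.70 in the transgenic animals and 4.63 in wildtype replicate 1. The groups therefore also differed in this signal, and genotype cannot be told apart from it except through wildtype replicate 1. The same 2 wildtype arrays were low in meningeal and choroid plexus markers. All 10 measured meningeal ones had a difference above 0 (median 0.46), with a mean level relative to the 6 arrays of 0.25, 0.42 and 0.24 in the transgenic animals, against 0.22, -0.53 and -0.60 in wildtype replicates 1, 2 and 3. All 7 measured choroid plexus markers also had a difference above 0 (median 0.70), with relative levels of 0.58, -0.18 and 0.65 in the transgenic animals, against 0.51 and -0.56 in wildtype replicates 1 and 2 and a still lower level in wildtype replicate 3. The 10 measured neuronal markers lay at a median percentile of 99.2 of all tested probes by level, and 7 of them had a difference below 0 (median -0.05). In whole tissue, fewer cells of a type and less RNA per cell cannot be told apart. Lmna, the mouse gene of lamins A and C, differed by 0.15 ± 0.06 (SE, limma adjusted p = 0.451), and the sources used here do not say whether its probe detects the transgene.

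None of the 64 genes changed at a false discovery rate of 10% in limma with Benjamini-Hochberg adjustment over 14996 probes, where 7 probes or 0.0467% passed. The lowest adjusted p among the 64 was 0.431. At an unadjusted p under 0.05, 4 of them were higher in the transgenic group, which is 6.25% against 5.81% of all probes, and 0 were lower, against 4.8% of all probes (10.6% in both directions together). The share of higher genes was thus near that of the background. The differences ran from -0.18 to 0.37 with a median of 0.02, against a median of -0.00 over all genes, and 34 of the 64 (53.1%) lay above 0 against 49.9% of all probes. The 95% interval excluded a 2-fold difference in either direction for all 64 genes, and it excluded a 1.5-fold difference in either direction for 62.

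All 3 transgenic animals lay above all 3 wildtype animals in 10 of the 64 genes (15.6%, against 9.14% of all probes) and below them in 1 gene (1.56%, against 8.55%). For a single gene such a separation has a two-sided exact permutation p of 0.1, the smallest that 3 against 3 can give. The 18 genes in the dimmest 33.3% of the probes and the 46 brighter ones differed in direction. Of the dim genes 2 lay above 0 (11.1%) with a median of -0.08, against 33.9% and a median of -0.06 over all dim genes. Of the brighter genes 32 lay above 0 (69.6%) with a median of 0.09, against 58% and a median of 0.02 over all brighter genes. All 10 genes with the transgenic animals fully above wildtype were among the 46 brighter ones. Over all genes this separation was found in 1202 of 9918 brighter genes and in 161 of 4942 dim genes. Signal level therefore moved with the sign of a difference over all genes too, and its part in these counts was not tested.

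**Figure D1:**
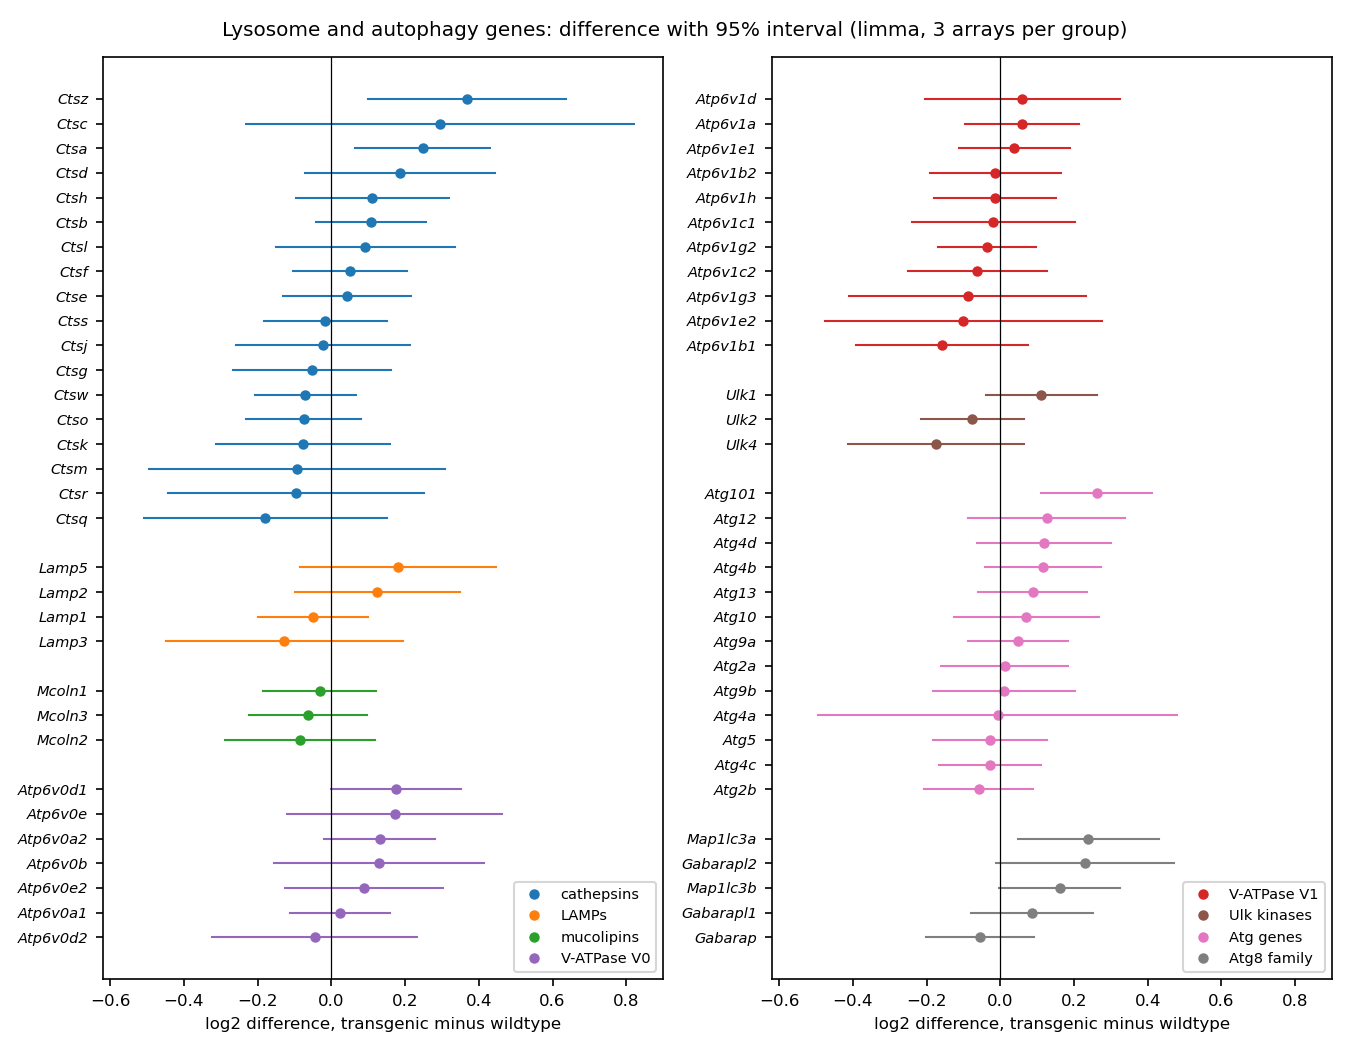
Log2 difference (horizontal axis, transgenic minus wildtype) of each of the 64 genes, grouped by role, with dots for the difference and lines for the 95% interval from limma (3 arrays per group). The differences run from -0.18 in Ctsq to 0.37 in Ctsz, and no interval reaches a 2-fold difference, which is 1 on this axis.

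Among the proteases, 9 of 18 cathepsin genes lay above 0 and 9 below, with a median difference of 0.01. Ctsz and Ctsa had an unadjusted p under 0.05, both higher, and none passed the false discovery rate. Ctsz, a cysteine carboxypeptidase found in microglia and macrophages, was measured at 9.52, 9.46 and 9.65 in the transgenic animals, against 9.41, 9.13 and 8.99 in wildtype. All transgenic values exceeded all wildtype values, and wildtype replicate 1 came close to the lowest of them. The difference was 0.37 ± 0.11 (SE, limma adjusted p = 0.431), an estimate of 29.1% over wildtype. Ctsa, a serine carboxypeptidase that also stabilises lysosomal neuraminidase and beta-galactosidase, had 11.06, 11.11 and 11.27 in the transgenic animals, against 10.99, 10.83 and 10.88 in wildtype. The groups did not overlap, and the difference was 0.25 ± 0.08 (SE, limma adjusted p = 0.431).

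Ctsd, the main aspartic protease of lysosomes, had 11.03, 10.96 and 11.24 in the transgenic animals, against 11.08, 10.75 and 10.85 in wildtype. Wildtype replicate 1 lay above 2 of the transgenic animals, and the difference was 0.19 ± 0.11 (SE, limma adjusted p = 0.566). Ctsb, an abundant cysteine protease, had 11.66, 11.66 and 11.77 in the transgenic animals, against 11.63, 11.54 and 11.60 in wildtype. Its groups did not overlap, but by a gap smaller than the spread within either group, and the difference was 0.11 ± 0.06 (SE, limma adjusted p = 0.567). Ctss, a cysteine protease of microglia and other antigen-presenting cells, had 8.78, 8.86 and 8.92 in the transgenic animals, against 8.87, 8.79 and 8.95 in wildtype. Its groups lay on top of each other, with a difference of -0.02 ± 0.07 (SE).

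Ctsc and Ctsl varied more among the wildtype animals than between the groups. How common this is over all genes was not counted. Ctsc, a dipeptidyl peptidase that activates serine proteases of immune cells, had 7.43, 7.18 and 7.40 in the transgenic animals, against 7.60, 6.80 and 6.73 in wildtype. Wildtype replicate 1 was the highest of the 6 arrays and wildtype replicates 2 and 3 the lowest. The difference was 0.30 ± 0.22 (SE) and turned to -0.25 ± 0.11 when the Y-linked signal entered as covariate. Ctsl, a broad endopeptidase, had 10.32, 10.36 and 10.40 in the transgenic animals, against 10.50, 10.17 and 10.13 in wildtype. Its difference of 0.09 likewise turned to -0.13 with the covariate, and in this fit wildtype replicate 1 alone stands for wildtype arrays without the signal. Ctsc and Ctsl are named here after their values were seen.

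Cathepsins of other tissues had dim probes. The 4 genes Ctsj, Ctsm, Ctsq and Ctsr, which in mouse are expressed in placenta, lay at a median percentile of 5.14 of the tested probes by level, and all 4 had differences below 0, with a median of -0.09. Over all dim genes 33.9% lay above 0. The mean level of the 4 relative to the 6 arrays was -0.15, -0.01 and 0.01 in the transgenic animals. It was -0.09, 0.34 and -0.10 in wildtype, so only wildtype replicate 2 stood above the transgenic animals. Among the 4, Ctsq had 4.07, 4.28 and 4.08 in the transgenic animals, against 4.14, 4.64 and 4.20 in wildtype, a difference of -0.18 ± 0.14 (SE). Ctsw, a cathepsin of cytotoxic lymphocytes, was the only one of the 64 genes with all transgenic animals below all wildtype animals. It had 6.08, 6.12 and 6.12 in the transgenic animals, against 6.13, 6.23 and 6.16 in wildtype, and its difference was -0.07 ± 0.06 (SE).

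The level of microglia markers was read from 18 genes, of which 9 had a difference above 0 and 9 below (median 0.02). Their mean level relative to the 6 arrays lay between -0.06 and 0.06 in the transgenic animals, against -0.10 to 0.04 in wildtype, so the groups overlapped. Cx3cr1, the fractalkine receptor of microglia, had a difference of -0.14 ± 0.07 (SE) and Olfml3, a secreted protein of microglia, one of 0.29 ± 0.12. All 9 endothelial markers had a difference above 0 (median 0.21), as had 7 of 8 oligodendrocyte markers (median 0.07) and 6 of 8 astrocyte markers (median 0.08). The part of these markers, and of the meningeal and choroid plexus ones, in the values of the cathepsins was not tested.

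Among the membrane proteins of the lysosome, no Lamp or Mcoln gene had an unadjusted p under 0.05 and in none were the groups apart. Over all probes 10.6% had such a p, and the transgenic group lay fully above in 9.14% and fully below in 8.55%. For so few genes these counts say little. Lamp1, the abundant glycoprotein that lines the lysosomal membrane, had 10.55, 10.64 and 10.71 in the transgenic animals, against 10.70, 10.68 and 10.66 in wildtype, with a difference of -0.05 ± 0.06 (SE). The 95% interval of this difference was -0.20 to 0.10. Lamp2, whose A isoform is the receptor of chaperone-mediated autophagy, had 10.40, 10.35 and 10.64 in the transgenic animals, against 10.45, 10.33 and 10.25 in wildtype. Transgenic replicate 3 stood above the other arrays, and the difference was 0.12 ± 0.10 (SE). Lamp5, a family member of neurons, differed by 0.18 ± 0.11, and Lamp3, a family member of mature dendritic cells, by -0.13 ± 0.14.

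The mucolipins are cation channels of endosomes and lysosomes. Mcoln1, the widely expressed calcium release channel of lysosomes, had 10.04, 10.14 and 10.14 in the transgenic animals, against 10.13, 10.07 and 10.21 in wildtype. The groups overlapped, with a difference of -0.03 ± 0.07 (SE). Mcoln2 and Mcoln3 differed by -0.09 ± 0.09 and -0.06 ± 0.07.

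The V-ATPase genes gave 9 of 18 differences above 0, with a median of 0.00, and none had an unadjusted p under 0.05, against 10.6% of all probes. The parts of the pump differed in this count, with 6 of 7 V0 genes above 0 (median 0.13) and 3 of 11 V1 genes above 0 (median -0.02). With the dim probes left out, 100% of the 6 remaining V0 genes and 42.9% of the 7 remaining V1 genes lay above 0. Their medians were 0.13 and -0.01. Over all dim genes 33.9% lay above 0, and how far signal level bears on the contrast in counts was not tested. No test of the difference between the parts was made. The V0 median stayed above the V1 median with any single array left out. Without wildtype replicate 2, 100% of V0 genes and 54.5% of V1 genes lay above 0. The contrast in counts was smaller without transgenic replicate 1, with 85.7% of V0 genes and 72.7% of V1 genes above 0. The medians were then 0.17 in V0 and 0.05 in V1. Without transgenic replicate 3 they were 0.02 in V0 and -0.06 in V1. With the Y-linked covariate the shares were again 85.7% and 72.7%, and the medians were 0.06 in V0 and 0.03 in V1. Shares and medians were the same at these digits without wildtype replicates 2 and 3. These last settings rest on wildtype replicate 1. In the V0 part, Atp6v0d1, the subunit that links the rotor to the V1 stalk, had 11.55, 11.63 and 11.78 in the transgenic animals, against 11.52, 11.43 and 11.49 in wildtype. The groups did not overlap, and the difference was 0.18 ± 0.07 (SE, limma adjusted p = 0.470). Atp6v0a2, the proton channel subunit typical of the Golgi and endosomes, had 9.67, 9.77 and 9.82 in the transgenic animals, against 9.62, 9.59 and 9.66 in wildtype, with a difference of 0.13 ± 0.06 (SE, limma adjusted p = 0.509). Atp6v0e, a small membrane subunit, had 9.52, 9.44 and 9.49 in the transgenic animals, against 9.59, 9.26 and 9.09 in wildtype. It followed the order of Ctsc and Ctsl among the wildtype animals, and its difference of 0.17 turned to -0.10 with the Y-linked covariate.

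The V1 part, which hydrolyses ATP, showed no separation of the groups in any of its 11 genes. Over all probes the transgenic group lay fully above wildtype in 9.14% and fully below in 8.55%, so this count says little for 11 genes. Atp6v1a, the catalytic subunit, had 11.77, 11.81 and 11.93 in the transgenic animals, against 11.81, 11.78 and 11.75 in wildtype, a difference of 0.06 ± 0.07 (SE). Atp6v1e1, a subunit of the stator stalk, differed by 0.04 ± 0.06. The isoform genes Atp6v1b1 of kidney and inner ear and Atp6v1c2 of kidney and lung differed by -0.16 ± 0.10 and -0.06 ± 0.08. All 5 measured isoforms that are typical of kidney, osteoclasts, testis or airway lay below 0, with a median of -0.09 at a median level percentile of 11.5. Over all dim genes 33.9% lay above 0. The mean relative level of the 5 was -0.15, 0.01 and -0.00 in the transgenic animals, against -0.06, 0.17 and 0.03 in wildtype. Atp6v0d2, the isoform of osteoclasts and some macrophages, was among the 5 at -0.05 ± 0.12 and turned to 0.02 with a further quantile normalization.

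The V-ATPase genes varied together among the transgenic animals. Transgenic replicate 3 was the highest of the 6 arrays in 11 of the 18 genes (61.1%), against 38.9% of genes above the median level, and transgenic replicate 1 was the lowest in 9 (50%), against 22% of those genes. Atp6v1d, a subunit of the rotor shaft, had 10.83, 11.02 and 11.28 in the transgenic animals, against 10.93, 11.05 and 10.96 in wildtype. The transgenic animals spanned the wildtype range on both sides. Atp6v1c1, a subunit that ties the parts of the pump together, had 11.15, 11.28 and 11.48 in the transgenic animals, against 11.25, 11.36 and 11.35 in wildtype. Atp6v0b, a proteolipid of the rotor ring, had 10.42, 10.70 and 10.88 in the transgenic animals, against 10.53, 10.44 and 10.65 in wildtype. In each of these 3 genes, which are named after their values were seen, transgenic replicate 1 was low and transgenic replicate 3 high. Over all 64 genes, transgenic replicate 3 was the highest array in 30 (46.9%) and transgenic replicate 1 the lowest in 24 (37.5%). The mean relative level of the 7442 genes above the median was 0.05 in transgenic replicate 3 and -0.01 and 0.01 in transgenic replicates 1 and 2, against -0.00, -0.05 and -0.00 in wildtype replicates 1, 2 and 3. In 17 of the 18 V-ATPase genes the range of the transgenic animals was wider than the difference between the groups. The same count was not made over all genes, so whether it is particular to the V-ATPase is not known.

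**Figure D2:**
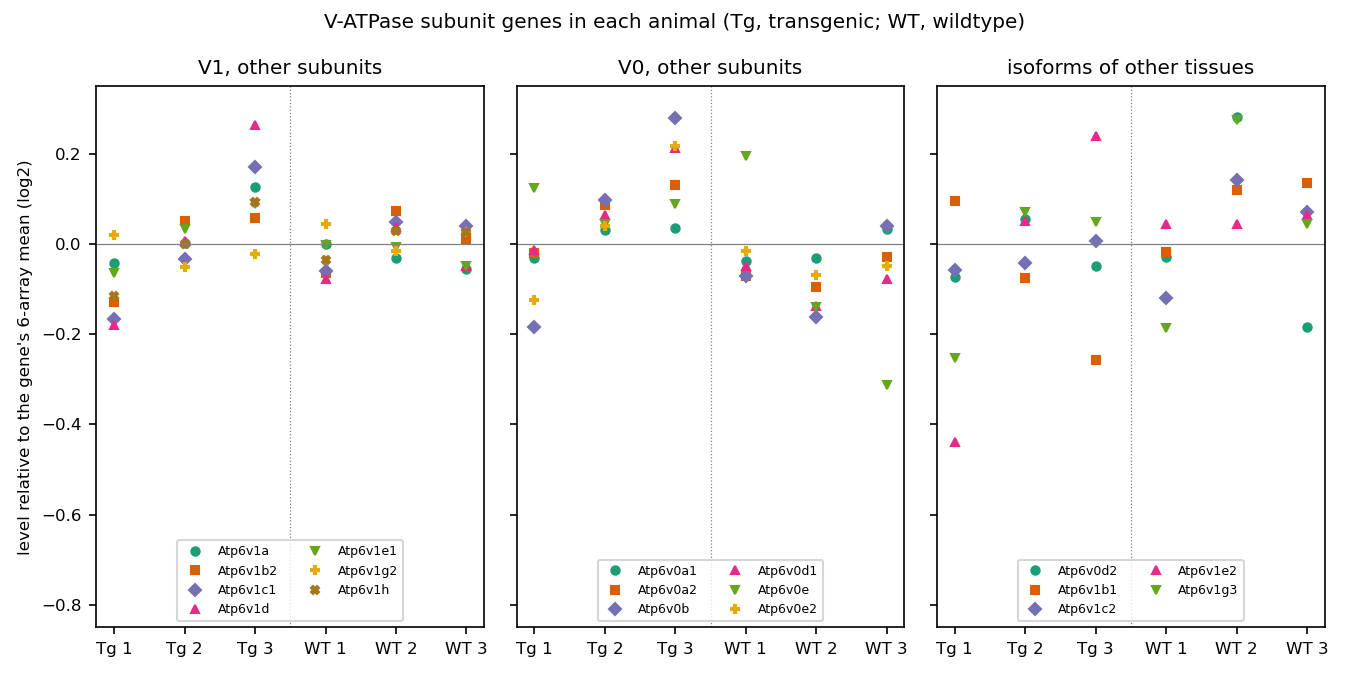
Level of each V-ATPase subunit gene relative to its own mean over the 6 arrays (vertical axis, log2), by animal, for V1 subunits, V0 subunits and isoforms typical of other tissues. Points of transgenic replicate 3 are the highest of the 6 arrays in 11 of the 18 genes and points of transgenic replicate 1 the lowest in 9.

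Some of the 64 genes have a promoter sequence feature that the choice by name did not use. Many lysosomal promoters hold a palindrome known as the CLEAR element, and variants of it, which the transcription factor TFEB binds. RefSeq promoters of the GRCm38.p6 assembly, from 250 bases before to 50 after a gene's start, were given for 53 of the 64 genes. The letters CACGTG were found in 12 of the 53 (22.6%), against 8.09% of 27025 genes, and the longer TCACGTGA, which contains them, in 6 (11.3%), against 1.12%. The full palindrome, with 1 more base on either side, was in 0 of the 53, against 0.37% of all genes. All of these read the same on either strand. The sequences around TCACGTGA (in capitals) are printed on the gene's strand, because these 6 genes span the proteases, the channel and both parts of the pump and so allow genes with the same element to be compared.
Ctsa: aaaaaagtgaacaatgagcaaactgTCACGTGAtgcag
Ctsa, next copy: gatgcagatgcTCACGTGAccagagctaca
Ctsd: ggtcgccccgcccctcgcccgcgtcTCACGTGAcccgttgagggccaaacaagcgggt
Mcoln1: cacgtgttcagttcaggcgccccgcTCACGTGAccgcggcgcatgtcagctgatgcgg
Atp6v1a: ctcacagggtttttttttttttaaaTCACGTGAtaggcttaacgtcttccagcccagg
Atp6v0d1: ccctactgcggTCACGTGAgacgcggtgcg
Atp6v0e: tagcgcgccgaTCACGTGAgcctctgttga

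These stretches lie at chr2:164833735-164833772 and chr2:164833766-164833795 on the plus strand for Ctsa and at chr7:142387894-142387951 on the minus strand for Ctsd. Those of Mcoln1 and Atp6v0e are on the plus strand at chr8:3500448-3500505 and chr17:26676387-26676416. Those of Atp6v1a and Atp6v0d1 are on the minus strand at chr16:44139359-44139416 and chr8:105566050-105566079. The motif ended 124 bases before the annotated start in Atp6v1a, 91 in Ctsd, 38 in Mcoln1 and 5 in the first copy of Ctsa, and it lay across or just after the start in the others. The differences of these 6 genes were 0.25 in Ctsa, 0.19 in Ctsd, 0.18 in Atp6v0d1, 0.17 in Atp6v0e, 0.06 in Atp6v1a and -0.03 in Mcoln1, and none passed the false discovery rate. With the Y-linked covariate they were 0.16 in Ctsa, 0.00 in Ctsd, 0.14 in Atp6v0d1, -0.10 in Atp6v0e, 0.03 in Atp6v1a and -0.02 in Mcoln1. A match of letters is a description of the promoter and does not show binding.

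Among genes that start autophagy, Atg101, a subunit of the Ulk1 complex that stabilises Atg13, had the smallest p of the 64 genes. It was measured at 8.57, 8.52 and 8.62 in the transgenic animals, against 8.36, 8.23 and 8.33 in wildtype. The groups lay clearly apart, by a gap wider than the range within either group. The difference was 0.26 ± 0.06 (SE), or 19.9% over wildtype, and did not pass (limma adjusted p = 0.431). Over all the settings tried, it stayed between 0.21 and 0.29. Its partners differed less. The kinase gene Ulk1 had 9.67, 9.69 and 9.68 in the transgenic animals, against 9.53, 9.51 and 9.66 in wildtype, and differed by 0.11 ± 0.06. Its paralogue Ulk2 differed by -0.08 ± 0.06, and Ulk4, a pseudokinase of the family, by -0.17 ± 0.10.

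The other Atg genes gave differences between -0.06 and 0.13. With Atg101, 9 of the 13 lay above 0, the median was 0.05, and Atg101 alone had an unadjusted p under 0.05. Atg4b, the main protease that trims LC3 before it is joined to lipid, had 8.72, 8.76 and 8.79 in the transgenic animals, against 8.67, 8.54 and 8.71 in wildtype. The groups were apart by little, and the difference was 0.12 ± 0.07 (SE). Atg4c, a protease of the same family, differed by -0.03 ± 0.06. Atg2b, which transfers lipids into the growing membrane, differed by -0.06 ± 0.06 at its brighter probe and by 0.07 at its other probe, so the probes disagreed in sign.

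In the Atg8 family, whose proteins coat the autophagosome, 4 of 5 genes lay above 0, with a median of 0.16, and 1 had an unadjusted p under 0.05. Map1lc3a, which encodes LC3A, had 9.40, 9.36 and 9.45 in the transgenic animals, against 9.18, 9.29 and 9.02 in wildtype. The groups did not overlap, the wildtype animals spread more widely, and the difference was 0.24 ± 0.08 (SE, limma adjusted p = 0.432). Map1lc3b, which encodes the commonly used autophagosome marker LC3B, had 11.49, 11.43 and 11.62 in the transgenic animals, against 11.36, 11.30 and 11.40 in wildtype. Its groups were also apart, with a difference of 0.16 ± 0.07 (SE, limma adjusted p = 0.474).

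The GABARAP branch was less even. Gabarapl2 had 7.05, 7.23 and 7.43 in the transgenic animals, against 7.07, 6.93 and 7.02 in wildtype. Transgenic replicate 1 lay within the wildtype range, and the difference was 0.23 ± 0.10 (SE, limma adjusted p = 0.482). Gabarapl1 ran up to 12.07 in the transgenic animals, against 11.94 in wildtype, and had the same lowest value of 11.87 in both groups, with a difference of 0.09 ± 0.07. Gabarap itself had 12.02, 12.13 and 12.08 in the transgenic animals, against 12.08, 12.14 and 12.18 in wildtype, with a difference of -0.06 ± 0.06. Whether the members of the family differed from each other was not tested.

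**Figure D3:**
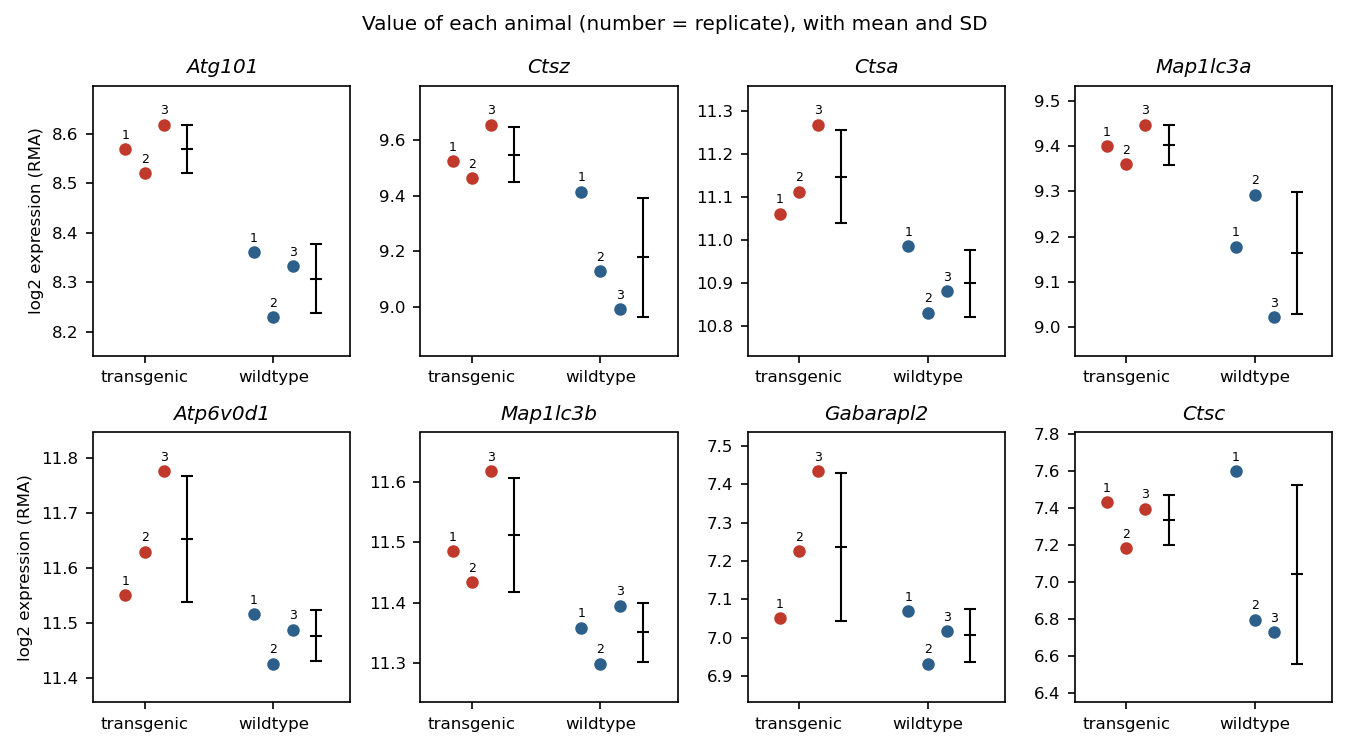
Log2 expression (vertical axes, each panel on its own scale) of 8 genes in each transgenic and wildtype animal, numbered by replicate, with mean and SD (n = 3). In Atg101, Ctsz, Ctsa, Map1lc3a, Atp6v0d1 and Map1lc3b the groups do not overlap, while in Gabarapl2 transgenic replicate 1 lies in the wildtype range and in Ctsc wildtype replicate 1 is the highest array.

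Some of the 64 genes followed the difference among the wildtype animals, at shares near those of genes above the median level. Wildtype replicates 2 and 3 both lay below the other 4 arrays in 11 of the 64 genes (17.2%, against 12.9% of all genes and 18.1% of genes above the median level) and both above them in 5 (7.81%, against 11.9% and 8.94%). The 11 genes held Ctsa, Ctsb, Ctsc, Ctsd, Ctsl and Ctsz, and also Lamp2, Atp6v0d1, Atp6v0e, Atg101 and Gabarapl2. The mean of the other 4 arrays was above the mean of wildtype replicates 2 and 3 by 0.64 in Ctsc, 0.45 in Ctsz and 0.34 in Atp6v0e. With the mean of the Y-linked probes as a covariate, 45 of the 64 differences lay above 0, none had an unadjusted p under 0.05, and the median was 0.03, against 0.01 over all probes. This fit gave 0.14 in Ctsz and 0.00 in Ctsd, and 0.16 in Ctsa, 0.21 in Atg101, 0.22 in Map1lc3a and 0.15 in Map1lc3b. Without wildtype replicates 2 and 3 the values were 0.13 in Ctsz, 0.16 in Ctsa, 0.21 in Atg101 and 0.23 in Map1lc3a. Both comparisons rest on wildtype replicate 1.

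**Figure D4:**
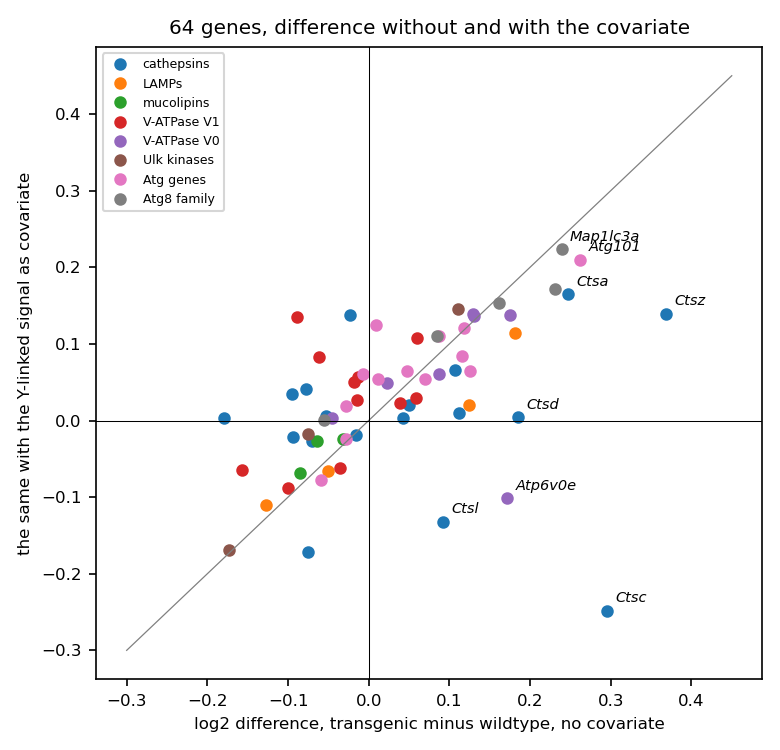
Log2 difference (transgenic minus wildtype) of the 64 genes without a covariate (horizontal axis) and with a covariate for the Y-linked signal (vertical axis), coloured by role, with the line of equal values. Ctsc, Ctsl and Atp6v0e lie above 0 on the horizontal axis and below 0 on the vertical axis, while Atg101 and Map1lc3a lie near the line.

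**Figure D5:**
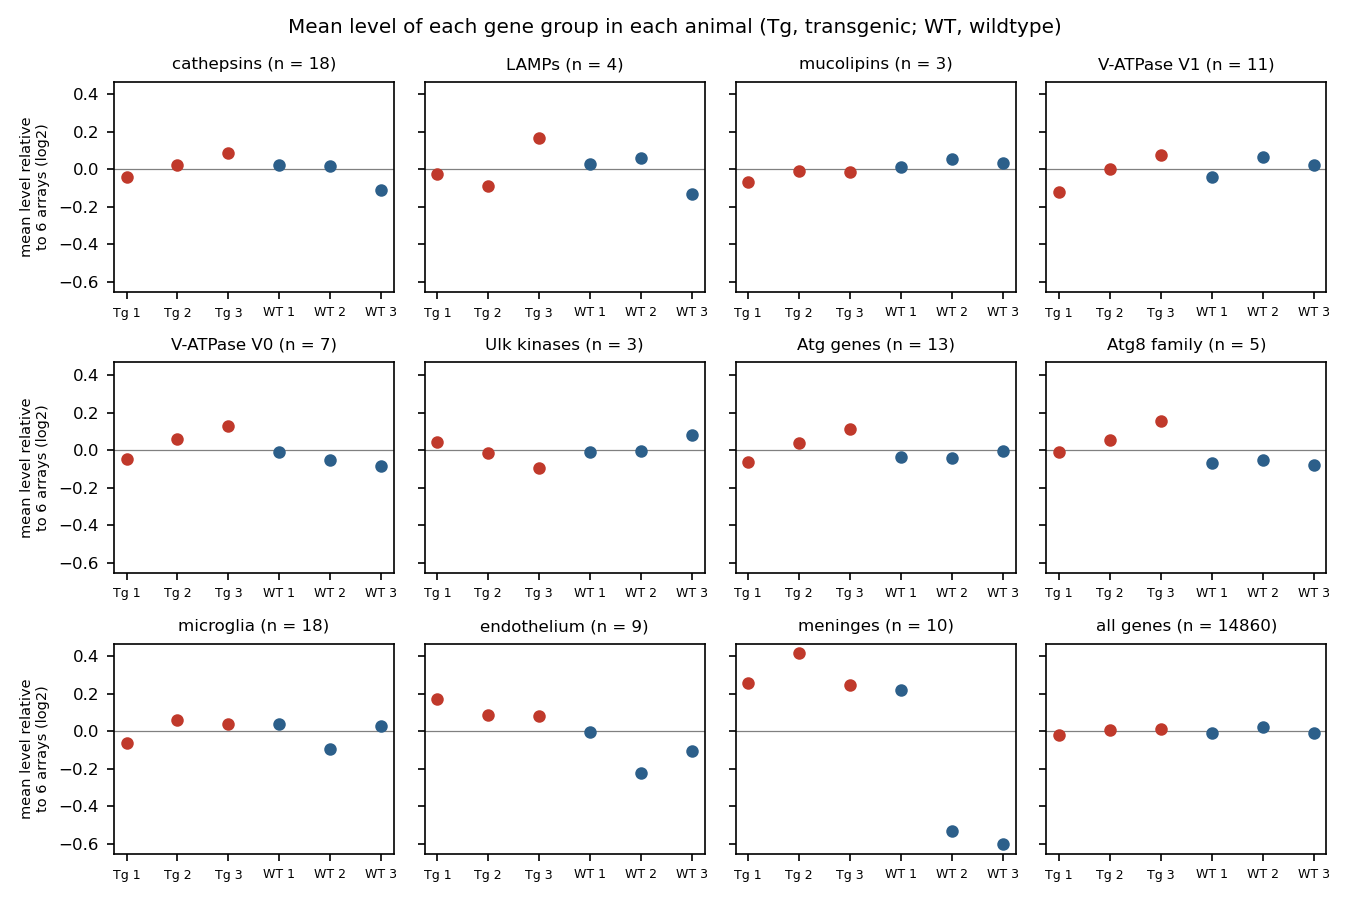
Mean level relative to the 6 arrays (vertical axis, log2) of each role group, of microglia, endothelial and meningeal markers and of all genes, by animal. The meningeal markers lie at -0.53 and -0.60 in wildtype replicates 2 and 3 and between 0.22 and 0.42 in the other 4 animals.

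No other gene of the pathway, outside the choice by name, passed the false discovery rate. In 7 further lists 111 genes were measured, and their counts stand against 49.9% of all probes above 0 and 5.81% higher at an unadjusted p under 0.05. Of 30 lysosomal hydrolases 23 lay above 0, with a median of 0.07, and 1 had an unadjusted p under 0.05. That gene, the serine carboxypeptidase Scpep1, had 7.35, 7.34 and 7.41 in the transgenic animals, against 7.23, 6.98 and 6.99 in wildtype, a difference of 0.30 ± 0.08 (SE, limma adjusted p = 0.431). The heparan sulfate hydrolase gene Naglu differed by 0.14 ± 0.07. Of 21 lysosomal membrane proteins 18 lay above 0, with a median of 0.08, and 4 had an unadjusted p under 0.05, all higher. These are 85.7% above 0, against the 58% of brighter genes, and 19% higher at that p, against the 9.06% without dim probes. The cystine exporter gene Ctns had 8.60, 8.55 and 8.72 in the transgenic animals, against 8.43, 8.37 and 8.41 in wildtype. Its groups were apart, and the difference was 0.22 ± 0.07 (SE, limma adjusted p = 0.431). The other 3 were Cd68, a glycoprotein of macrophage lysosomes, at 0.28 ± 0.11, the cation channel gene Tpcn1 at 0.20 ± 0.08 and Laptm5, a lysosomal protein of blood-derived cells and microglia, at 0.22 ± 0.09. With the Y-linked covariate these 4 had differences of 0.19 in Ctns, 0.12 in Cd68, 0.07 in Tpcn1 and 0.04 in Laptm5.

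The genes around autophagosome formation and control differed little. Of 13 genes of autophagosome nucleation 8 lay above 0 and 1 had an unadjusted p under 0.05. That gene, Tmem41b, a lipid scramblase of the endoplasmic reticulum, differed by 0.25 ± 0.08 (SE, limma adjusted p = 0.431), while Wdr45, a phosphoinositide-binding protein of the pathway, differed by 0.10 ± 0.08. Of 20 genes of mTORC1, AMPK and TFEB control 12 lay above 0 and 1 had such a p, the mTOR subunit gene Mlst8 at 0.25 ± 0.08 (limma adjusted p = 0.432). The mTOR inhibitor gene Deptor differed by 0.14 ± 0.06. Of 11 autophagy receptors 4 lay above 0, none with such a p. Sqstm1, which encodes the receptor p62, differed by 0.08 ± 0.07 and the mitochondrial receptor gene Bnip3 by -0.07 ± 0.07. Of 12 genes of autophagosome and lysosome fusion 10 lay above 0, none with such a p, with Vps18 of the tethering complex HOPS at 0.14 ± 0.08 and the autophagosomal SNARE gene Stx17 at -0.10 ± 0.06. Of 4 genes of mannose 6-phosphate sorting 3 lay above 0, with Nagpa and Gnptab, both of which act in making the sorting tag, at 0.10 ± 0.08 and -0.06 ± 0.06.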

How the data were processed

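RNA of 6 mouse hippocampi was hybridised to Affymetrix arrays, 1 per animal. The authors deposited log2 values, made with RMA (background correction, normalization between arrays, summary over probes) per the submitters' processing notes. These also list the build mm8. The sources used here give no version and no filter. The number of arrays limits the precision.

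Of 23332 probes, 14996 had 1 symbol in the platform annotation, whose names may be outdated, 1019 had several and 7317 none. The gene identifier of 14941 was in RefSeq and 0 names changed. The 14996 probes were fitted with limma 3.58.1 in R 4.3.3 (lmFit, eBayes, no covariate, two-sided), with Benjamini-Hochberg adjustment over all of them. Of a gene's probes the one with the highest mean stood for it, which concerned 1 gene here. The series text sets the 10% rate and a 2-fold rule. The fit was tested on simulated data.

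Genes named are the 12 of smallest p, the 2 of smallest p per role and direction, all of roles with up to 5 genes, and the 2 of smallest p per further list. Ctsb, Ctsc, Ctsl, Ctss, Atp6v0b, Atp6v0e, Atp6v1c1, Atp6v1d, Tpcn1, Laptm5 and Lmna were named after their values were seen. The 64 genes, lists and alternatives were chosen with earlier results of these data known. Alternatives were a replicate block, further normalization, filters, variance models, other probe choices, the Y-linked covariate and arrays left out.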

Additional observations from a re-analysis of the deposited data

How the results depend on the processing

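No alternative brought any of the 64 genes past the 10% rate. The lowest limma adjusted p was 0.106, without wildtype replicate 1. Both wildtype arrays left in that setting carry the Y-linked signal, so genotype cannot be told apart from it there. With the 2-fold rule the count of genes past the rate was also 0. The count of 4 higher genes at an unadjusted p under 0.05 became 7 without the dimmest 33.3% of the probes and 7 with trend and robust estimation. It was 0 with the Y-linked covariate and 0 without wildtype replicates 2 and 3, both of which test with fewer degrees of freedom, and 1 at a p of 0.01. With single arrays left out it ran from 2 (without transgenic replicate 3) to 8 (without transgenic replicate 1, and without wildtype replicate 1), and the count of lower genes from 0 to 2 (without transgenic replicate 1). The share of all probes that were higher moved too, to 9.06% without the dim probes, 6.84% with trend and robust estimation, 1.62% with the covariate and also without wildtype replicates 2 and 3, 3.55% without transgenic replicate 3, 5.76% without transgenic replicate 1 and 7.01% without wildtype replicate 1, where 103 probes passed the 10% rate. The median of the genes was 0.0863 without the dim probes, which leaves 46 genes, and with single arrays left out it ran from 0.00077 to 0.0719.

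With the replicate block 5 genes were higher and 0 lower, and the lowest adjusted p was 0.352. Same-numbered animals deviated from their group means with r of 0.23, 0.15 and 0.02 across genes. Wildtype replicate 3 correlated better with transgenic replicate 2 (0.09), and the numbers were not taken as pairs.

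Of 919 values of 58 named genes, 29 changed sign. With the Y-linked covariate these were Atp6v0d2 (0.0037), Atp6v0e (-0.10), Atp6v1c1 (0.0501), Atp6v1c2 (0.0826), Ctsc (-0.25), Ctsl (-0.13), Ctsq (0.0032) and Gabarap (0.0011). Without wildtype replicates 2 and 3 they were Atp6v0d2 (0.0060), Atp6v0e (-0.11), Atp6v1c1 (0.0519), Atp6v1c2 (0.0883), Ctsc (-0.26), Ctsd (-0.0012), Ctsl (-0.14), Ctsq (0.0089) and Gabarap (0.0014). A further quantile normalization turned Atp6v0d2 (0.0209) and Mcoln3 (0.0044), array weights Atp6v0d2 (0.0394), and the mean of its probes Atg2b (0.0043). With single arrays left out, Atg4c ran from -0.0556 to 0.0037 (turned without transgenic replicate 2), Atp6v0d2 from -0.149 to 0.0831 (wildtype replicate 2) and Mcoln1 from -0.0671 to 0.0060 (wildtype replicate 3). Atp6v1d ran from -0.0566 to 0.165 (turned without transgenic replicate 3). Atp6v1c1 ran from -0.109 to 0.0600 (turned without transgenic replicate 1 or wildtype replicate 2), and Ctss from -0.0578 to 0.0232 (turned without transgenic replicate 1 or wildtype replicate 3). The causes were not tested.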

Other observations

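For 4 further genes of these families the only probe carried several symbols and was left out of the tests above. The probe shared by Atg16l1 and Scarna6 had a difference of -0.02, that of Atg3 and D930048N14Rik one of -0.02, that of Atg7 and Camsap1 one of 0.00 and that of Atp6v0a4 and D630045J12Rik one of -0.03. Atg3, Atg7 and Atg16l1 act in joining LC3 to lipid. None of these probes had an unadjusted p under 0.05.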
